A study of Danio rerio with 2 samples.

Results

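The genes described here are 47 of the 1287 genes in a table of differences between wild-type and ezh2 mutant zebrafish embryos. All 47 carry the class Transcription in KOG, a catalogue of orthologous proteins that sorts genes by broad function. Of the 117 genes of that class, 66 were left out because their annotation names one of the large families (homeobox and Hox, POU, hairy and HES, SOX and HMG, forkhead, AP-1 and others), and 4 blood regulators were left out by name (gata1a, tal1, myb and spi1a). What remains is a mixed set of DNA-binding factors, corepressors, a part of the transcription machinery and others. The rule used the annotation and gene names, not the values, but it was set with earlier results of these data known. The table itself holds only genes that the authors had already selected as different between the libraries.

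Messenger RNA had been sequenced from whole embryos of the AB strain at 28 hours post fertilization. One library came from wild-type (WT) embryos and one from embryos homozygous mutant for ezh2 (ezh2-/-). The labels name neither the mutant allele nor the number of embryos pooled, and they do not say whether the mothers carried the mutation. With 1 library per genotype there is no spread between replicates and no p-value, and every difference below is a difference between 2 libraries.

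Ezh2 is the enzyme of Polycomb repressive complex 2, which trimethylates lysine 27 of histone H3 and so helps to keep developmental regulators silent where they are not needed. Many of those regulators are transcription factors. In the nervous system of the embryo, proneural factors of the basic helix-loop-helix (bHLH) type push dividing progenitors towards the neuronal fate, and a series of further bHLH, zinc finger and COE factors then acts in the newborn neurons. Basic leucine zipper (bZIP) factors more often respond to signals such as cyclic AMP, inflammation or stress in the endoplasmic reticulum.

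Values are the deposited read counts, and FPKM (fragments per kilobase of transcript, scaled to the mapped fragments of the library) where levels of different genes are compared. A fold is the ratio of the counts of the 2 libraries, scaled to meet the fold changes the authors deposited, and brackets give its 95% exact (Clopper-Pearson) interval. These intervals cover counting error only, and no variation between embryos or libraries. They treat reads as independent molecules, which reads are not, so they can be too narrow even for that error. The mutated gene ezh2 was not analysed here, so the genotype labels were not checked on it. Because whole embryos were used, fewer cells of a type and less RNA per cell cannot be told apart in any result below.

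Most of the 47 genes were lower in the mutant library. Lower by at least 2-fold were 33 of the 47, against 31.9% of all 1287 listed genes, and higher by at least 2-fold were 14, or 29.8% against 68.1%. That each gene passes 2-fold follows from the authors' selection, whose smallest absolute log2 fold change is 1.0, so only the direction and the size carry information. With the log2 folds of all listed genes centred on their median, a shift of -1.31, 1 gene was 2-fold higher and 33 were lower. Centred on their mean after trimming 30% at each end, a shift of -1.22, the numbers were the same. Either shift lowers every gene alike, so no lower gene could turn higher. Any higher gene within the shift had to turn lower. Over the 47 genes the log2 fold changes had a median of -1.16, and over all listed genes of 1.31. Since every gene lies past 2-fold, such a median mainly tells which direction holds more genes, not how large the differences are. Among the 70 genes of the class that the rule leaves out, 58 were lower and 12 higher, with a median of -1.22. No test of these shares was made.

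The differences were mostly modest in size, close to those of all listed genes in the same direction. Of the 33 lower genes 24 were less than 3-fold apart, and of the 14 higher genes 8 were. The lower genes had a median log2 fold change of -1.327, against -1.315 for all lower listed genes. For the higher genes it was 1.492, against 1.612. Medians given below for families that hold only lower genes compare with -1.315. At least 4-fold lower by the log2 fold change were 4 of the 33 lower genes, against 59 of the 411 lower listed genes (4.58% of all listed genes). At least 4-fold higher were 2 of the 14 higher genes, against 290 of 876 (22.5% of all). With 5 counts added in place of the small count, cremb (1.935) and single-minded homolog 2 (gene20338, -1.986) fell short of 4-fold. Unlike the printed folds, the log2 fold change has a small count added in each library. By its printed fold atoh7, 4.03-fold lower, would pass as well, but its log2 fold change was -1.97. The counting interval lay wholly beyond 2-fold for 31 of the 47 and included 2-fold for 16. The same count over all listed genes was not made. Because every gene was selected past 2-fold, these numbers depend on that selection and on read depth. For the 23 genes counted 200 times or more in each library, the upper bound of the interval was at most 1.37 times the lower bound.

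**Figure D1:**
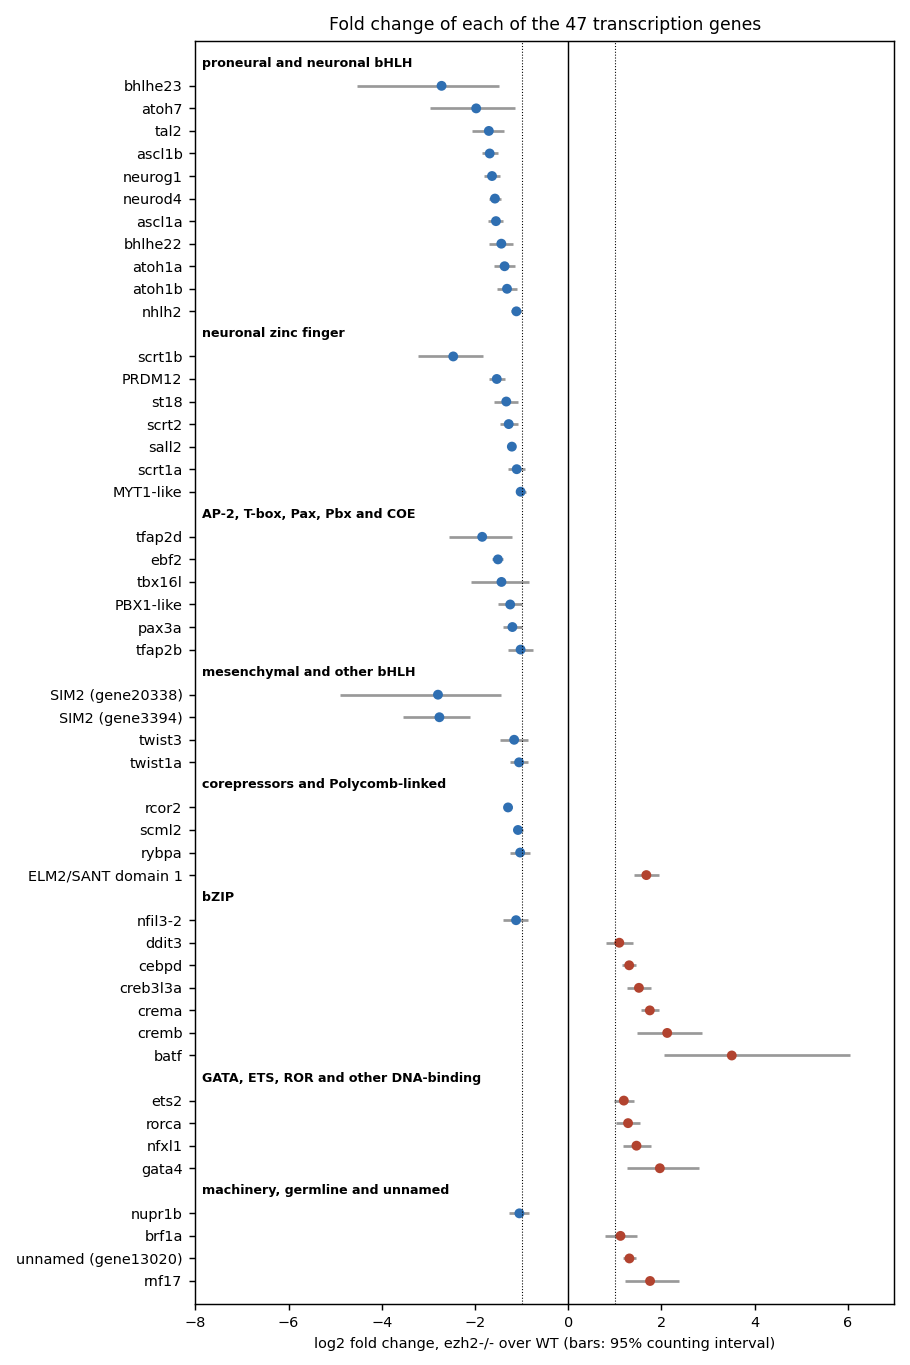
Log2 fold change of each of the 47 genes (x axis, ezh2-/- over WT), grouped by family on the y axis; blue points are lower and red points higher in the mutant library, bars are 95% counting intervals and dotted lines mark 2-fold. Some families, assigned by hand (bHLH of both kinds, neuronal zinc fingers, and AP-2, T-box, Pax, Pbx and COE), hold only lower genes here. Higher are 6 of 7 bZIP genes, against 68.1% of all listed genes. With the listed genes centred on their median, ddit3, brf1a, ets2 and rorca turn lower.

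The proneural and neuronal bHLH genes were the largest family, and all 11 were lower in the mutant library, against 31.9% of all listed genes. Their median log2 fold change was -1.57. The proneural gene neurog1, which starts the formation of cranial sensory and primary neurons, had 1261 counts in WT and 402 in the mutant, or 3.11-fold lower (2.77 to 3.48). For neurod4, a differentiation factor that acts after the proneural step, the counts were 1843 and 614, 2.97-fold lower (2.71 to 3.26). These are among the most abundant of the 47 genes, at 50.4 and 51.6 FPKM in the WT library and 15.8 and 17.2 FPKM in the mutant library.

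Both zebrafish copies of achaete-scute 1, a proneural gene of the central nervous system, were lower to a similar degree. ascl1a went from 1251 to 423 counts (2.93-fold, 2.62 to 3.28) and ascl1b from 1172 to 361 (3.21-fold, 2.85 to 3.63). Their intervals overlap. The atonal 1 copies, proneural factors of the rhombic lip and of hair cells, also had overlapping intervals: atoh1a had 578 counts in WT and 222 in the mutant (2.58-fold lower, 2.20 to 3.02), and atoh1b 610 and 243 (2.49-fold lower, 2.14 to 2.90). For atoh1b the FPKM gave a smaller difference, 18.2 in WT against 9.86 in the mutant library, or 1.85-fold. atoh7, which is needed for retinal ganglion cells, was measured on far fewer reads, with 57 counts in WT and 14 in the mutant, or 4.03-fold lower (2.22 to 7.83).

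The remaining bHLH genes of this family act in postmitotic or regional neurons. nhlh2, expressed in newly born neurons, had 1688 counts in WT and 774 in the mutant and the smallest difference of the family, 2.16-fold lower (1.98 to 2.35). bhlhe22, a neuronal repressor studied in mouse, was 2.71-fold lower (2.28 to 3.23), from 492 to 180 counts. tal2, a determinant of midbrain GABA neurons in mouse, had 310 and 94 counts, 3.27-fold lower (2.58 to 4.16). bhlhe23, known from the mouse retina, had the largest difference of the family, from 36 counts to 5 (7.13-fold lower), but its interval runs from 2.79 to 23.3. Summed over the 11 genes, the counts were 9298 in WT and 3332 in the mutant library, which is 2.76-fold lower (2.65 to 2.88). A longer list of 25 proneural and neuronal bHLH genes and their partners was used beside the family: 11 of them are in the table. These are the same 11 genes, so the list adds nothing to the family. Its other genes were not matched, either because they were not selected as different or because the table names them otherwise.

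**Figure D2:**
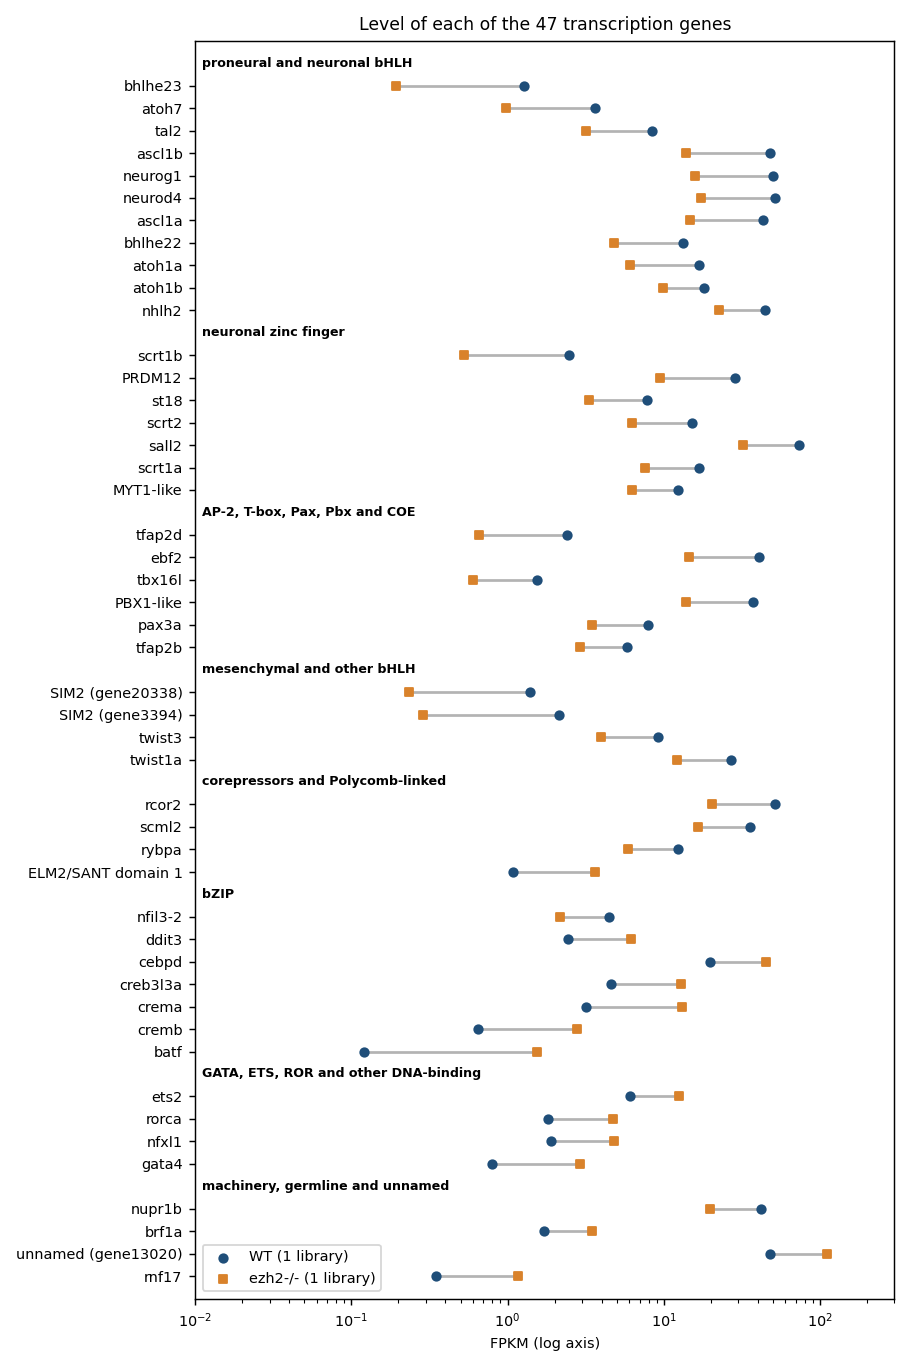
FPKM of each of the 47 genes on a log axis (x axis), with the genes grouped by family (y axis); blue circles are the WT library, orange squares the ezh2-/- library, and a grey line joins both values of a gene. neurod4, neurog1, ascl1b, nhlh2 and ascl1a lie between 43.5 and 51.6 FPKM in WT and between 14.0 and 22.7 in the mutant library, while crema, cebpd and the unnamed gene13020 lie further right in the mutant library.

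Zinc finger genes with known roles in neurons, a group picked by hand, were lower as well, 7 of 7, against 31.9% of listed genes. Their median log2 fold change was -1.28. The NF-X1-type zinc finger gene nfxl1, grouped elsewhere by hand, was higher. The Scratch genes encode repressors of the Snail superfamily that mark newborn neurons. scrt1a had 782 counts in WT and 360 in the mutant (2.15-fold lower, 1.90 to 2.44) and scrt2 had 778 and 318 (2.42-fold lower, 2.12 to 2.77). scrt1b was the scarcest and the most different, with 125 and 22 counts, 5.63-fold lower (3.56 to 9.30). Its interval overlaps with neither of the other two. As a share of the counts of all 3 Scratch genes, scrt1b made up 7.42% in WT (exact binomial interval 6.21 to 8.78%) and 3.14% in the mutant library (1.98 to 4.72%).

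The most abundant of all 47 genes in the WT library was sall2, a Spalt-family zinc finger gene of the neural tube and eye in mouse. It had 6311 counts in WT and 2705 in the mutant, or 2.31-fold lower (2.21 to 2.42), or 73.8 against 32.1 FPKM. A gene named PR domain zinc finger protein 12, a factor of sensory neurons and spinal interneurons, went from 1064 to 364 counts (2.89-fold lower, 2.57 to 3.27). A pair of genes of the MYT family, which acts in neuronal differentiation, completed the group. st18 had 419 and 165 counts (2.51-fold lower, 2.09 to 3.03), and a myelin transcription factor 1-like gene had 2150 and 1050 (2.03-fold lower, 1.88 to 2.18). Over the 7 genes the summed counts were 11629 and 4984, a ratio 2.31-fold lower (2.24 to 2.39).

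Genes of the AP-2, T-box, Pax, Pbx and COE families, pooled by hand, were lower in 6 of 6 cases, against 31.9% of listed genes. Their median log2 fold change was -1.34. The pool joins unrelated families, and the other such pool, of GATA, ETS, ROR and NF-X1 factors, held only higher genes. The 6 of 6 therefore depends on how the families were pooled, and no conclusion is drawn from it. ebf2, a COE factor that acts in primary neurons of the zebrafish, had 2165 counts in WT and 754 in the mutant, or 2.84-fold lower (2.62 to 3.09). A pre-B-cell leukemia transcription factor 1-like gene, from the family of Hox cofactors, was 2.37-fold lower (1.997 to 2.82), with 455 and 190 counts. pax3a, which acts in the dorsal neural tube, neural crest and muscle precursors, had 658 and 284 counts, 2.29-fold lower (1.99 to 2.65).

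The AP-2 genes tfap2b and tfap2d were both lower, and no other protein-coding gene lies between them in the RefSeq annotation GRCz12tu. tfap2d had 92 counts in WT and 25 in the mutant (3.64-fold lower, 2.32 to 5.92), and tfap2b had 357 and 174 (2.03-fold lower, 1.69 to 2.45). The intervals of the neighbours overlap slightly. tbx16l, named TBX6L in the table and a T-box gene of the paraxial mesoderm, had 88 and 32 counts, 2.72-fold lower (1.80 to 4.22).

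Outside the neuronal family, 4 of 4 further bHLH genes were lower, against 31.9% of all listed genes. The largest downward difference of the whole set was among these 4. A pair of genes that the table names alike, single-minded homolog 2, encode bHLH-PAS factors, a group known for the nervous system midline of the fly. One (gene3394) had 140 counts in WT and 20 in the mutant, or 6.93-fold lower (4.32 to 11.7); the other (gene20338) had 31 and 4, 7.67-fold lower (2.71 to 29.9). Since both carry one name, which copy each is remains uncertain. The mesenchymal genes twist1a and twist3, active in sclerotome and neural crest derivatives, differed less, by 2.08-fold (1.82 to 2.38; 686 and 327 counts) and 2.24-fold (1.82 to 2.76; 305 and 135 counts).

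Corepressors and Polycomb-linked genes went both ways. rcor2, a corepressor that works with the histone demethylase Lsd1, was the third most abundant of the 47 in WT, with 3053 counts in WT and 1236 in the mutant, or 2.45-fold lower (2.29 to 2.61). scml2, which encodes a Polycomb-associated MBT-domain protein, had 2118 and 994 counts (2.11-fold lower, 1.96 to 2.28). rybpa, a subunit of Polycomb repressive complex 1, was 2.04-fold lower (1.77 to 2.37), from 578 to 280 counts. In the opposite direction, a gene named ELM2 and SANT domain-containing protein 1, a scaffold of a histone deacetylase complex, had 155 counts in WT and 492 in the mutant, or 3.21-fold higher (2.67 to 3.87).

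The bZIP family held more of the 14 higher genes than any other family. Higher were 6 of 7 (85.7%), against 68.1% of all listed genes, with a median log2 fold change over the 7 genes of 1.52. Of the 6, ddit3 turns lower when the listed genes are centred on their median or trimmed mean. Under either centring only 1 bZIP gene, batf, stays at least 2-fold higher, which follows from the shift. Both zebrafish copies of the cyclic AMP-responsive modulator CREM were among the higher genes. crema had 271 counts in WT and 905 in the mutant, or 3.37-fold higher (2.94 to 3.88). A gene that the table calls uncharacterized protein LOC550357 carries the gene number of cremb in RefSeq; it had 23 and 101 counts, 4.44-fold higher (2.80 to 7.31). For crema the FPKM, 3.16 in WT and 13.1 in the mutant library, gave a larger difference of 4.16-fold.

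Other bZIP genes of the set respond to inflammation, metabolic signals or stress. cebpd, an acute-phase regulator, was the most abundant, with 531 counts in WT and 1304 in the mutant, or 2.48-fold higher (2.24 to 2.75), or 19.7 against 44.9 FPKM. creb3l3a, a membrane-bound factor of liver and intestine, had 171 and 486 counts (2.87-fold higher, 2.41 to 3.44). ddit3, which encodes the stress factor CHOP, had 139 and 295 counts, 2.14-fold higher (1.75 to 2.64).

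The largest upward difference of the 47 was in batf, which pairs with Jun proteins in mammalian immune cells. It rests on 3 WT counts and 39 mutant counts, a ratio of 13.1 (4.17 to 66.4), and its level stayed low in both libraries, at 0.12 and 1.53 FPKM. nfil3-2, of a family of repressors that includes the clock and immune regulator Nfil3, was the bZIP gene in the opposite direction, with 382 and 174 counts, 2.17-fold lower (1.81 to 2.62). With nfil3-2 included, the summed counts of the 7 bZIP genes were 1520 and 3304, a ratio of 2.19 (2.07 to 2.33). A list of 36 bZIP genes outside AP-1 had 5 members in the table, all among the genes above. All 5 were higher, though ddit3 turns lower under both centred scales. That list matched neither nfil3-2, the lower bZIP gene, nor batf, so it adds nothing to the 6 higher genes of 7.

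Another 4 factors, of other unrelated families and also pooled by hand, were each higher in the mutant library, as were 68.1% of all listed genes. Through the shift alone, ets2 turns lower under both centred scales and rorca with the median centred. gata4, an endoderm and heart regulator, had 19 counts in WT and 75 in the mutant (3.99-fold higher, 2.38 to 6.99). The ETS gene ets2 had 272 and 617 counts (2.29-fold higher, 1.98 to 2.65). rorca, a nuclear receptor whose mouse counterpart RORγ acts in lymphoid cells, had 180 and 435 (2.44-fold higher, 2.05 to 2.92). An NF-X1-type zinc finger gene, nfxl1, was 2.77-fold higher (2.25 to 3.43), with 124 and 340 counts.

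The last genes are of mixed kinds: basal machinery, germ line, a stress-responsive chromatin protein and a gene without a name. brf1a encodes a subunit of TFIIIB, the factor that brings RNA polymerase III to its genes; it had 105 counts in WT and 227 in the mutant (2.18-fold higher, 1.73 to 2.78), and it turns lower under both centred scales. rnf17, a Tudor and RING protein of mouse germ cells, had 34 and 115 counts (3.42-fold higher, 2.31 to 5.17). nupr1b, a small stress-responsive chromatin protein, had 545 and 261 counts, 2.07-fold lower (1.78 to 2.41). One gene without a name (gene13020) had 522 and 1286 counts, 2.49-fold higher (2.25 to 2.76), and at 111.5 FPKM it was the most abundant of the 47 in the mutant library. A list of 55 RNA polymerase subunits, TBP-associated factors and general factors of RNA polymerase II, which does not hold brf1a, had no match in the table, and neither had a list of 33 Mediator genes.

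The lower genes had the higher levels in WT, which sorting the genes by mutant over WT in part sets, and in the mutant library the levels were closer. Above 10 FPKM in WT were 20 of the 33 lower genes and 2 of the 14 higher genes. In the mutant library they were 12 of 33 and 5 of 14, about the same share of each. The median of the 14 higher genes was 1.85 FPKM in WT and 4.76 in the mutant library, where that of the lower genes was 6.28. Among all listed genes the medians in WT were 10.3 FPKM for the lower and 1.24 for the higher genes, and in the mutant library 4.41 and 4.04. In WT 9 of the 10 most abundant of the 47 were lower genes; in the mutant library 8 of the 10 were.

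**Figure D3:**
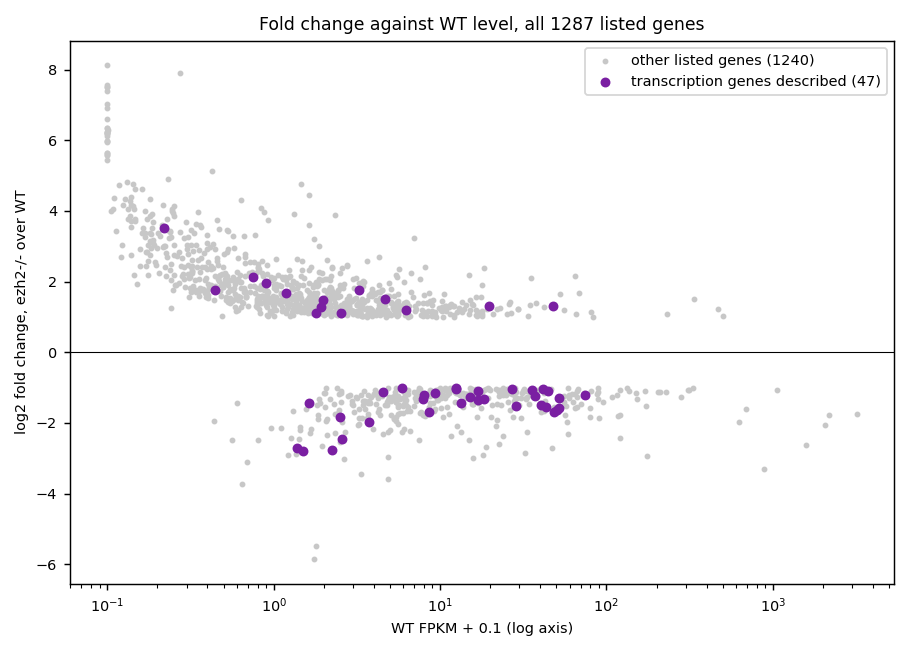
Log2 fold change (y axis, ezh2-/- over WT) against WT FPKM with 0.1 added (x axis, log axis) for all 1287 listed genes, with the 47 transcription genes in purple and the others in grey. The empty band around 0 is the authors' selection; 33 purple points lie below 0 and 14 above, on the authors' scale.

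Some gene ontology terms in the table were shared by members of 1 direction. The term protein dimerization activity, which bHLH proteins carry, was attached to 16 of the 47 genes, all lower; in the whole table it was attached to 39 genes, 37 of them lower. Terms that contain neuro, neural, nervous, brain, glia, axon, synap, retina or spinal stood beside 13 of the 47, again all lower, and beside 102 genes of the table, of which 72 were lower. Broader terms did the same: DNA binding was attached to 11 of the 47, all lower, and to 51 genes of the table, 42 of them lower. Transcription factor complex and nucleic acid binding were each attached to 4, all lower, against 14 of 19 and 18 of 33 in the table. Zinc ion binding had 4 higher and 1 lower, against 36 and 17 in the table. Sequence-specific DNA binding was attached to 7 higher and 4 lower genes of the 47, and in the whole table to 22 higher and 61 lower genes. The term list was read after the folds were known, and 8 of the 47 genes have no term at all.

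Counts and FPKM gave the same direction for 47 of 47 genes. For 43 of them the mutant library's counts per unit of FPKM, relative to WT, lay within 1.2 times the median of 391 well-counted genes, which was 0.978. The exceptions were atoh1b, gene20338 (single-minded homolog 2), crema and tal2, at 0.736, 0.774, 0.804 and 0.805. Counts per FPKM depend on the transcript length the authors assigned, but a length that is the same in both libraries cancels in this ratio. Why these 4 genes stood apart was not tested. For them the size of the difference depends on the measure. tal2, for example, was 3.27-fold lower in counts and 2.65-fold lower in FPKM.

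**Figure D4:**
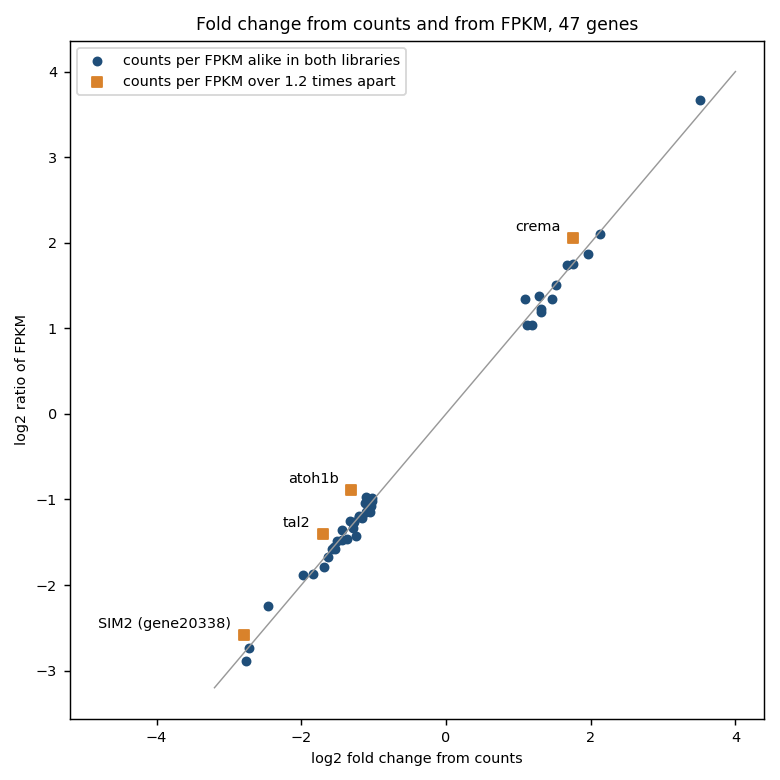
Log2 fold change from counts (x axis) against the log2 ratio of FPKM with nothing added (y axis), 1 point per gene, with the line of equality in grey. Blue circles are the 43 genes whose counts per FPKM were alike in both libraries, and orange squares are atoh1b, tal2, crema and gene20338, which lie above the line.

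Markers of cell types and states were read beside these results, and their part in them was not tested. Every gene in the table was selected as different, 31.9% of them lower and 68.1% higher. The lists were chosen with earlier results of these data known, so the counts below are description only. Of 20 neural progenitor markers, 14 were in the table and 14 were lower, with summed counts of 51673 in WT and 21464 in the mutant library. Of 16 erythroid markers, 10 were in the table, at 12 loci, all lower, with 92372 and 23300 counts. Of 19 targets of p53, 10 were in the table and all were higher, with 13407 and 43293 counts. None of 14 muscle and 14 epidermis markers was matched in the table. Only 722 of the 1287 listed genes had a symbol or other name to match, so an unmatched marker is not shown to be absent.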

How the data were processed

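RNA of whole embryos was sequenced from poly(A)-selected libraries made with a kit that does not mark strand, per the labels' protocols. The submitters' processing notes name GRCz10, Bowtie 0.12.2 and Cufflinks without their roles; which tool counted the reads and which test was run is not stated there. Each gene has a raw count and an FPKM per library, an FDR (an adjusted p-value) and a log2 fold change, all deposited by the authors, per the file headers. The largest FDR in the authors' deposited table is 0.00996, and the library totals are not known. How reads of overlapping genes or close copies were shared out is not known.

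The log2 fold change here is log2((mutant count + 0.5)/(WT count + 0.5)) plus 0.0144, the offset at which the count ratio of 391 genes counted 200 times or more in each library meets the deposited values. Intervals were computed with scipy 1.17.1 and tested on simulated independent counts, which hold counting error only. Words of the rule were matched without regard to case.

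Symbols came from the KEGG hit or product name in the table, updated in RefSeq (GRCz12tu); 40 of the 47 genes have a symbol there. Lists were matched by symbol, and 722 of the 1287 listed genes had a symbol or other name. A gene without one, or held under another name, would be missed in any list. Families were assigned by hand. The members and the 27 gene lists were chosen with earlier results of these data known.

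The rule for named genes took, among genes that reached 50 counts, the 8 largest rises and falls, up to 4 genes per family and the 5 most abundant in each direction. It gave 34 genes; the other 13 were added after their values were seen, so that each gene is accounted for. Promoter motifs were planned, but no promoter or protein sequence was used here.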

Additional observations from a re-analysis of the deposited data

How the results depend on the processing

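No paired analysis was possible because each genotype has 1 library. Adding 5 counts, or leaving out the scale factor, left the log2 fold change of each of the 47 genes within its counting interval, and FPKM moved atoh1b, nhlh2 and crema beyond it without a change of direction. By FPKM with 0.1 added, 29 genes were 2-fold lower and 13 higher, with 9 of 11 neuronal bHLH and 6 of 7 neuronal zinc finger genes lower. With folds centred on the median of all listed genes, 4 genes turned lower: ddit3 (-0.21), brf1a (-0.18), ets2 (-0.11) and rorca (-0.021). Centred on the mean after trimming 30% at each end, 3 did: ddit3 (-0.13), brf1a (-0.10) and ets2 (-0.029). Under either centring 1 of the 47 genes, the bZIP gene batf, was 2-fold higher (so 1 bZIP gene), and the median log2 fold change was -2.46 or -2.38; this follows from the shift. At 4-fold, applied to the log2 fold change, 2 genes were higher and 4 lower. Among these, 1 neuronal bHLH gene (bhlhe23) and 1 neuronal zinc finger gene were lower and 2 bZIP genes higher. The neuronal bHLH gene atoh7, 4.03-fold lower by the ratio of counts, fell short with a log2 fold change of -1.97. Taking all genes of the class gave 26 higher and 91 lower, and adding to the 47 the 13 genes with several classes gave 23 higher and 37 lower. Depth limits batf, bhlhe23 and gene20338, which had under 50 counts in both libraries.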

Other observations

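Factor families outside the 47 genes, taken from the lists by symbol, had few members in the table. Of 58 nuclear receptor genes 4 were matched: nr2e1, which maintains neural progenitors in mouse, was 2.42-fold lower, nr2f1a 2.31-fold lower and nr2f1b 2.64-fold lower, while nr6a1a was 3.88-fold higher. Of 33 KLF and SP genes, klf5a was 2.83-fold and klf10 3.54-fold higher and klf11a was 2.95-fold lower; klf1, an erythroid factor, was not on that list and was lower in the table, at a log2 fold change of -1.44. Of 18 GLI, ZIC and Snail-family genes, gli2b, which transduces hedgehog signals, was 2.08-fold lower beside the 3 Scratch genes. Among 14 E2F and Rb genes, rbl2, a pocket protein that restrains the cell cycle, went from 96 to 1274 counts, 13.4-fold higher (10.9 to 16.7). None of the 5 Id genes, which encode inhibitors of bHLH factors, was matched.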
